A study of Mus musculus with 2 samples.

Results

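The accessible regions at 5 loci of the B lineage, the regulator genes Ebf1, Pax5 and Foxo1 and the immunoglobulin loci Igh and Igk, were compared between early thymic progenitors (ETPs) with and without the E proteins E2A and HEB. Open DNA was mapped with ATAC-seq, where a transposase cuts and tags accessible sites, and each library was deposited as a list of peaks with a score. A peak belonged to a locus if its centre lay in a fixed mm9 window: chr11:44300001-44950000 for Ebf1, chr4:44450001-44800000 for Pax5, chr3:51950001-52300000 for Foxo1, chr12:114400001-117300000 for Igh and chr6:67500001-70750000 for Igk. The windows held 320 of the 103454 distinct regions of both lists, made up of 214 of the 69896 double-knockout (dKO) peaks and 282 of the 85764 wild-type (WT) peaks. The windows were set by position alone and also hold sequence of neighbouring genes, so a peak in a window is not thereby a peak of the gene it is named for.

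The dKO library came from sorted ETPs of the fetal thymus of C57BL/6 mice with floxed E2A and HEB alleles and IL7RCre, a Cre driven from the IL-7 receptor locus, which is active in lymphoid progenitors. The WT library came from fetal thymic ETPs of wild-type C57BL/6 mice. Both sorts took Kit-positive, CD44-positive cells without CD25, CD4, CD8 or lineage markers, and the dKO sort alone also required YFP, so genotype and this gate cannot be told apart. There was 1 library per genotype, hence no replicate check and no test between genotypes. Intervals below are exact Clopper-Pearson 95% intervals that cover counting error over peaks only, and neighbouring peaks are not independent. The sources used here do not give the number or age of the embryos. Peak lists hold no RNA, so loss of E2A and HEB and the identity of the sorted cells by marker genes were not checked here, and the depth of sequencing is unknown.

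E2A and HEB belong to the basic helix-loop-helix family and bind the E-box. In B cell development E2A acts upstream of EBF1, the factor that specifies the B lineage, and together they turn on Pax5, whose product commits cells to that lineage. FOXO1 is a forkhead factor that supports expression of the recombinase genes and of the IL-7 receptor. The Igh and Igk loci carry the variable, joining and constant segments (and in Igh also diversity segments) from which B cells assemble the heavy chain and the kappa light chain of the antibody. Thymocytes do not make antibody, although partial Igh rearrangement is known in them.

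Because E proteins read the E-box, the promoters of the 3 regulator genes are shown, with each match to the E-box CANNTG in capitals. This motif reads the same on both strands. The sequences are from RefSeq (GRCm38.p6), run from 250 bases before to 50 after an annotated start, and 72.3% of the 32851 promoters in that table hold at least 1 match. A match is a description of the letters, not a binding site. The table lists a pair of starts for Ebf1, of which the upstream one (chr11:44617850-44618149, plus strand) held no match and the downstream one (chr11:44619978-44620277, plus strand) held 2. Pax5 (chr4:44710645-44710944, minus strand) and Foxo1 (chr3:52268087-52268386, plus strand) held 1 each. These coordinates are of another build than the mm9 peaks, and no peak was placed on them.
Ebf1 upstream start: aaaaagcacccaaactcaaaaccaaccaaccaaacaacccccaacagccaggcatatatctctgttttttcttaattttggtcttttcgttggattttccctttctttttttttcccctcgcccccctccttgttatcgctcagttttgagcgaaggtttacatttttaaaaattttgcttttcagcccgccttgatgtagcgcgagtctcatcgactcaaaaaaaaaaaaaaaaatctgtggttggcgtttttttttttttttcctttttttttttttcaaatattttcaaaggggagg
Ebf1 downstream start: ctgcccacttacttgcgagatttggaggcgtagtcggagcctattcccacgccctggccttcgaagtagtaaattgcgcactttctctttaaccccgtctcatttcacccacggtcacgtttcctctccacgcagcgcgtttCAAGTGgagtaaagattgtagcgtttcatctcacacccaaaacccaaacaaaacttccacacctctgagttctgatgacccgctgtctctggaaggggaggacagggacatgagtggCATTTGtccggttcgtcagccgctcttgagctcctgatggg
Pax5: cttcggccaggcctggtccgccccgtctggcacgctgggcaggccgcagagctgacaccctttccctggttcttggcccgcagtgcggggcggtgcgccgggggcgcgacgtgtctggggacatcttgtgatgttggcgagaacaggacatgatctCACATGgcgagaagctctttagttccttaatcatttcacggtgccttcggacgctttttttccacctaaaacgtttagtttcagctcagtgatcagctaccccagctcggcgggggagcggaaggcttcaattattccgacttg
Foxo1: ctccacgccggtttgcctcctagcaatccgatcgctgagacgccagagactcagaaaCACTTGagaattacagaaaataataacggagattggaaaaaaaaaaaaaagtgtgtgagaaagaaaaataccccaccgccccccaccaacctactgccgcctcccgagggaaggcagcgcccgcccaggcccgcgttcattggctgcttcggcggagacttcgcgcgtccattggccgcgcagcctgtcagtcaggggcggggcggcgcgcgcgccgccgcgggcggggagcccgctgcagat

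Peaks of the 5 windows were divided into kept (a dKO and a WT peak overlapping by at least 1 bp, 176 regions), gained (dKO list alone, 38) and lost (WT list alone, 106). The gained peaks made up 17.8% of the dKO peaks in the windows (12.9 to 23.5%), against 25.3% of all dKO peaks. The lost peaks made up 37.6% of the WT peaks in the windows (31.9 to 43.5%), against 39.1% of all WT peaks. The interval of the lost share thus contained the value of the whole lists, and that of the gained share lay below it. The WT list is longer, which raises the lost share relative to the gained share over the whole lists. With both lists at equal length, the gained and lost shares were 23.4% and 27.4% in the windows and 31.4% each over the whole lists.

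Strength was expressed as the percentile of the score within its own list, where 100 is the strongest peak. Peaks of the 5 windows were weaker than average, with a median percentile of 43.7 in dKO and 42.8 in WT. Weak peaks are lost more often everywhere. Of the WT peaks in the lowest 10% of the list 77.0% were lost, and of those in the highest 10% only 6.63%. Giving each WT peak in the windows the lost rate of its own 10% band over the whole list would give 42.5% lost, against the observed 37.6%. The same calculation would give 26.8% gained among the dKO peaks, against the observed 17.8%.

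**Figure D1:**
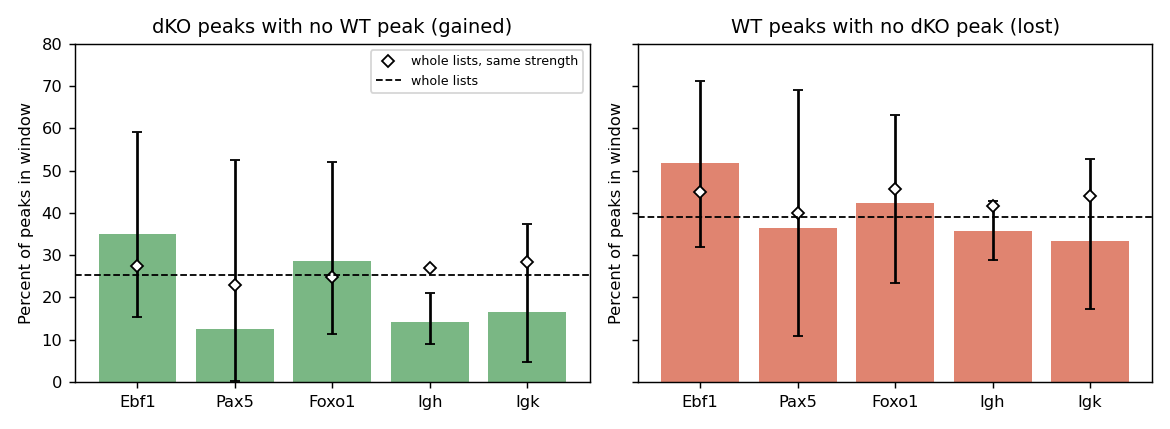
Percent of peaks that were gained (left, of the dKO peaks) and lost (right, of the WT peaks) in each window, with exact 95% intervals. The dashed line is the value over the whole lists and the open diamond that of whole-list peaks of the same strength; at Igh the gained share (14.2%) and its interval lie below both.

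The Ebf1 window held 20 dKO and 27 WT peaks, of which 13 were kept, 7 gained and 14 lost. The gained share was 35.0% (15.4 to 59.2%) and the lost share 51.9% (31.9 to 71.3%), so that both intervals still contained the values of the whole lists. Of the 14 lost peaks, 8 lay in the high-coordinate part of the window, split at its midpoint. From 44625001 to 44950000, 8 of 11 WT peaks were lost (72.7%, 39.0 to 94.0%) and none of the 3 dKO peaks was new, whereas from 44300001 to 44625000 6 of 16 WT peaks were lost and 7 of 17 dKO peaks were gained. WT peaks of the same strength were lost at 55.4% and 37.6% over the whole list for these 2 stretches.

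The strongest kept Ebf1 peaks were a pair about 1 kb apart. The peak at chr11:44333631-44333781 stood at percentile 90.5 in dKO and 89.4 in WT. The peak at chr11:44332372-44332522 stood at 89.9 in dKO and 86.5 in WT. Their ranks were nearly equal in the genotypes, which is partly built in, since peaks ranking high in both lists were picked. The next kept peaks ranked lower in dKO. The peak at chr11:44430663-44430813 stood at 74.1 in dKO and 86.5 in WT, the one at chr11:44424483-44424633 at 71.4 in dKO and 79.1 in WT, and the one at chr11:44706531-44706681 at 60.6 in dKO and 76.9 in WT. Of the 13 kept Ebf1 peaks 8 ranked lower in dKO and 5 higher, where 33617 of all 52206 kept peaks were lower. The Ebf1 median difference was -7.64 points (-16.2 to 13.5), against -2.67 over all kept peaks. The median changes of the same 10% WT bands over the whole list would give -6.66. Lower ranks in dKO thus do not set the locus apart. Positions of kept peaks are those of the WT list.

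Single Ebf1 sites moved in both directions. The site at chr11:44458593-44458743 ranked at 77.6 in dKO and 43.6 in WT, 33.9 points higher, which 2.94% of all kept peaks matched or passed. The site at chr11:44738501-44738651 ranked 24.0 points higher in dKO (38.7 in dKO, 14.7 in WT). In the other direction, chr11:44498093-44498243 ranked at 21.4 in dKO and 53.9 in WT, and chr11:44510127-44510277 at 4.96 in dKO and 28.6 in WT. These are 2 of 13 kept peaks at least 20 points higher and 2 of 13 at least 20 points lower, against 7.4% and 17.8% of all kept peaks. The remaining 4 kept peaks differed by -12.3 to 13.5 points.

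The lost Ebf1 peaks were led by chr11:44694914-44695064, at percentile 73.0 of the WT list, whose nearest dKO peak centre was 11607 bp away. The next, chr11:44446923-44447073 at percentile 72.1, had a gained dKO peak 283 bp away (chr11:44446640-44446790, percentile 16.1), so that accessibility was called near it in both genotypes. Then came chr11:44353839-44353989 at 59.0, chr11:44646973-44647123 at 43.6 and chr11:44359892-44360042 at 37.7. The other 9 lost peaks were weak, at percentiles 0.793 to 32.9. Of the 14 lost peaks, 11 had no dKO peak centre within 5 kb. The window held 3.08 dKO peaks per 100 kb, and the same share over all lost peaks was not computed, so this count does not set the locus apart.

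A single gained Ebf1 peak was strong. It lay at chr11:44394768-44394918, stood at percentile 72.8 of the dKO list, and had its nearest WT peak 29715 bp away. Together with a weaker gained peak at chr11:44399669-44399819 (percentile 27.4) it formed a pair with no WT peak between. The other named gained peaks were chr11:44482524-44482674 at 24.0 and chr11:44309756-44309906 at 14.7, and the last 2 were weaker still.

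**Figure D2:**
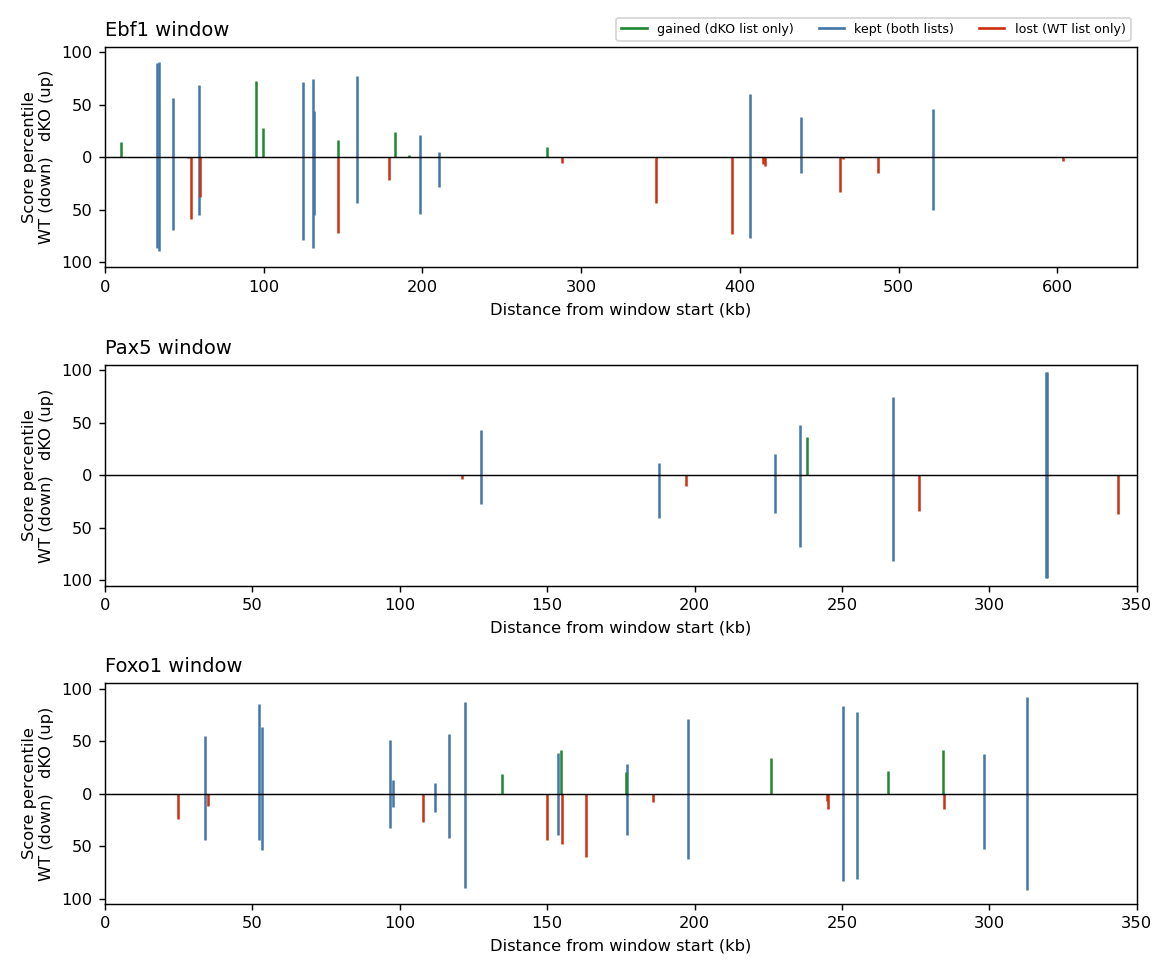
Peaks of the Ebf1, Pax5 and Foxo1 windows by distance from the window start (kb), with the percentile of each peak in the dKO list drawn upwards and in the WT list downwards. Kept peaks are blue, gained peaks green and lost peaks red. The high-coordinate part of the Ebf1 window carries mostly lost peaks, and the strongest peaks of the Pax5 window are a kept pair.

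The Pax5 window had few accessible regions, and its strongest pair was kept. Its window held 8 dKO and 11 WT peaks, with 7 kept, 1 gained and 4 lost. The gained share was 12.5% (0.316 to 52.7%) and the lost share 36.4% (10.9 to 69.2%), intervals too wide to set the locus apart from the whole lists. The strongest sites were a close pair at chr4:44769392-44769542, at percentile 98.3 in dKO and 97.9 in WT, and chr4:44769051-44769201, at 98.1 in dKO and 97.8 in WT. Zcchc7 is the next protein-coding gene on this side of Pax5 in the RefSeq gene order, and the gene to which the pair belongs was not settled here, since no mm9 annotation was used.

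The other kept Pax5 sites were weaker and differed more. The peak at chr4:44717372-44717522 ranked at 74.8 in dKO and 81.5 in WT, and chr4:44577546-44577696 at 43.4 in dKO and 27.5 in WT. The sites that ranked lowest relative to WT were chr4:44637813-44637963, at 11.6 in dKO and 40.4 in WT, and chr4:44685521-44685671, at 48.0 in dKO and 68.3 in WT. The last kept peak stood at 20.2 in dKO and 35.8 in WT. Thus 2 of 7 kept peaks were at least 20 points lower in dKO and none at least 20 points higher, against 17.8% and 7.4% of all kept peaks. With 7 peaks, these counts do not set the locus apart.

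All 4 lost Pax5 peaks were weak, at percentiles 36.8 (chr4:44793489-44793639), 33.9 (chr4:44725980-44726130), 10.1 (chr4:44647068-44647218) and 3.28 (chr4:44571071-44571221). The 1 gained peak, chr4:44687971-44688121, stood at percentile 37.0 and was 2450 bp from the nearest WT peak. No Pax5 peak above percentile 50 was therefore called in a single genotype. The window held only 3 dKO and 4 WT peaks above it, too few to set the locus apart. Over the whole lists, the 10% bands above percentile 50 had 6.24 to 21.5% of dKO peaks gained and 6.63 to 33.8% of WT peaks lost.

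The Foxo1 window had 6.0 dKO and 7.43 WT peaks per 100 kb. It held 21 dKO and 26 WT peaks, with 15 kept, 6 gained and 11 lost. The gained share was 28.6% (11.3 to 52.2%) and the lost share 42.3% (23.4 to 63.1%), both containing the whole-list values. Of its kept peaks 8 ranked higher and 7 lower in dKO, with a median difference of 0.10 points (-4.28 to 10.3), against -2.67 points over all kept peaks. At equal list lengths the medians were 12.9 points in Foxo1 and 0.77 over all kept peaks.

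The 5 strongest kept Foxo1 peaks differed by 8.37 points or less in rank between genotypes. This closeness is partly built in by the way they were picked. The strongest, chr3:52262717-52262867, stood at 91.7 in dKO and 91.6 in WT. It was followed by chr3:52072200-52072350 (87.0 in dKO, 90.3 in WT), chr3:52200319-52200469 (83.4 in dKO, 82.9 in WT) and chr3:52205144-52205294 (77.4 in dKO, 81.7 in WT). The site at chr3:52147564-52147714 stood at 70.8 in dKO and 62.4 in WT.

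One Foxo1 site differed far more than the rest. At chr3:52002057-52002207 the percentile was 85.6 in dKO and 44.4 in WT, with scores of 26.3 in dKO and 7.12 in WT, and 1.71% of all kept peaks ranked as many points higher in dKO. The next largest difference was 18.0 points, at chr3:52046512-52046662 (50.9 in dKO, 32.9 in WT). The largest differences in the other direction were smaller, at chr3:52247949-52248099 (37.9 in dKO, 52.7 in WT) and chr3:52127002-52127152 (28.5 in dKO, 39.5 in WT). No kept Foxo1 peak was 20 points or more lower in dKO, and 1 of 15 was at least 20 points higher. Of all kept peaks, 17.8% were that much lower and 7.4% that much higher. The site at chr3:52002057-52002207 lies in the low-coordinate part of the window. Maml3, which encodes a Notch co-activator, is the neighbouring protein-coding gene on that side.

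Lost Foxo1 peaks were led by chr3:52112917-52113067 at percentile 60.0, with the nearest dKO peak 8345 bp away. Of the next, chr3:52104818-52104968 at 48.1 had a gained dKO peak 246 bp away (chr3:52104572-52104722, percentile 41.0). Those at chr3:52099752-52099902 (44.4), chr3:52057931-52058081 (27.5) and chr3:51974650-51974800 (24.0) had none within 500 bp. The other 6 stood at 0.315 to 14.7. Of the gained peaks, 3 of 6 had a WT peak centre within 500 bp, against 31.2% of all gained peaks: chr3:52104572-52104722, chr3:52234174-52234324 at 41.8 and chr3:52126628-52126778 at 20.2. The others were chr3:52175756-52175906 at 34.3, chr3:52215411-52215561 at 21.4 and 1 peak at 18.9.

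Igh held most of the regions, and a smaller share of its dKO peaks was gained than over the whole dKO list. The window held 141 dKO and 188 WT peaks, of which 121 were kept, 20 gained and 67 lost. The gained share was 14.2% (8.88 to 21.1%), against 25.3% of all dKO peaks, 27.3% on chromosome 12 and 27.0% for dKO peaks of the same strength. The lost share was 35.6% (28.8 to 42.9%), against 39.1% of all WT peaks, 40.5% on chromosome 12 and 41.7% for WT peaks of the same strength. Few of these regions were strong: 4 dKO and 6 WT peaks stood in the highest 10% of their lists. Variable segments are a family of similar sequences, and the sources used here do not say how reads matching several of them were treated, so neighbouring segments may share signal.

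Loss within Igh was uneven along the window. In the RefSeq gene order of the locus, the 8 constant-region genes lie at the low-coordinate end, followed by 4 joining, 20 diversity and 183 variable segments (63 of them pseudogenes). In the first 500 kb (114400001 to 114900000) 19 of 35 WT peaks were lost, 54.3% (36.6 to 71.2%), against 44.4% for WT peaks of the same strength. The next 500 kb lost 2 of 14 (14.3%) and the following ones 7 of 24 (29.2%), 16 of 36 (44.4%) and 20 of 46 (43.5%). WT peaks of the same strength were lost at 42.5%, 33.2%, 43.3% and 45.0% over the whole list for these stretches. The intervals of these stretches and of the first 500 kb contained the same-strength values. At the far variable end (116900001 to 117300000) 3 of 33 were lost, 9.09% (1.92 to 24.3%), against 38.4% for WT peaks of the same strength.

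The losses of the first stretch formed a run. Between the kept peaks at chr12:114460339-114460489 and the next kept peak 192 kb further on, 12 consecutive WT peaks had no dKO partner (114461091 to 114641263). Over the whole WT list, 25 of 19045 such runs were as long or longer, the longest having 26 peaks. The strongest peaks of the run were chr12:114461091-114461241 at percentile 82.0, chr12:114516113-114516263 at 77.9 and chr12:114641113-114641263 at 73.2. The other 9 stood at 1.77 to 39.5. A single dKO-only peak fell between the flanking kept peaks, 164 bp from one of the weak members. The first of the strong peaks had a dKO peak centre 747 bp away and the other 2 had none within 11 kb. The run was picked out after its values were seen and has no test. Which constant, joining or diversity segment each peak belongs to was not settled here. With peaks up to 500 bp apart counted as kept, the run was broken by the displaced peak and its longest stretch had 7 peaks, a length reached by 154 runs of the whole list. With centres within 200 bp counted as kept it also had 7, a length reached by 210 runs.

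**Figure D3:**
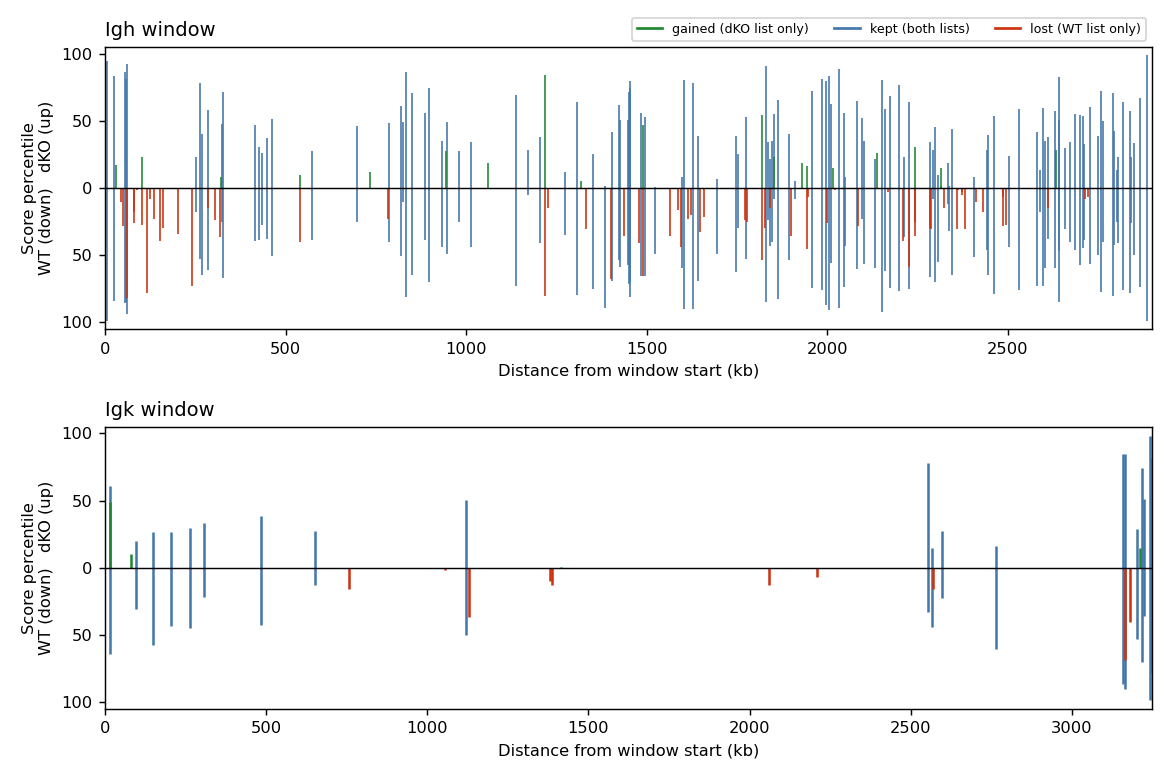
Peaks of the Igh and Igk windows by distance from the window start (kb), with percentiles in the dKO list upwards and in the WT list downwards. Red lost peaks without blue neighbours stand near the low end of Igh, where 12 consecutive WT peaks had no dKO partner; Igk is nearly empty over its middle part.

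The kept Igh peaks with the highest ranks lay near the edges of the window or in the variable region and were alike in both genotypes. The peak at chr12:117285846-117285996 stood at 99.2 in dKO and 99.0 in WT. At the opposite edge, chr12:114406426-114406576 stood at 94.6 in dKO and 99.1 in WT, and chr12:114460339-114460489 at 92.1 in dKO and 94.0 in WT. Within the window chr12:116431809-116431959 stood at 88.9 in dKO and 89.3 in WT, and chr12:116229291-116229441 at 90.7 in dKO and 84.5 in WT. The peaks at the edges are near the ends of the locus and may lie in or beside other genes.

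The largest single change of any kept peak in the 5 windows was in Igh. At chr12:115783308-115783458 the score was 3.08 in dKO and 26.7 in WT, so that the percentile was 1.69 in dKO and 89.5 in WT. Only 2 of all 52206 kept peaks, this one included, were as many points lower in dKO. The peaks were 16 bp apart at their centres, and the dKO peak was among the weakest of its list. The next largest difference, at chr12:115996241-115996391, was -51.2 points (8.34 in dKO, 59.5 in WT). The largest differences towards dKO were 46.7 points at chr12:116251098-116251248 (55.2 in dKO, 8.51 in WT) and 39.0 points at chr12:115224905-115225055 (49.1 in dKO, 10.1 in WT).

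Kept Igh peaks ranked slightly lower in dKO, with a median difference of -4.54 points (-8.08 to -2.62) and 82 of 121 lower, where 33617 of all 52206 kept peaks were lower. All kept peaks had a median of -2.67, and when percentiles were taken among kept peaks alone the medians were 0.59 in Igh and 0.55 over all, so no shift of the locus as a whole relative to other kept peaks was measured. Along the window the differences were uneven. From 114900001 to 115400000, 10 of 12 kept peaks ranked higher in dKO, with a median of 5.46 points. From 116400001 to 116900000, 21 of 26 ranked lower, with a median of -15.7 points. Among kept peaks alone these medians were 12.9 and -10.3. The median changes of the same 10% WT bands over the whole list would give -4.85 and -6.66. Both stretches were picked as the highest and lowest of segments set after seeing the data. The first and last segments changed sign among kept peaks alone, from -0.77 to 5.24 and from -5.74 to 1.13. The differences between segments were not tested. At least 20 points lower in dKO were 25 of 121 kept peaks (20.7%, against 17.8% of all), and at least 20 points higher 8 (6.61%, against 7.4%), shares near the whole lists.

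**Figure D4:**
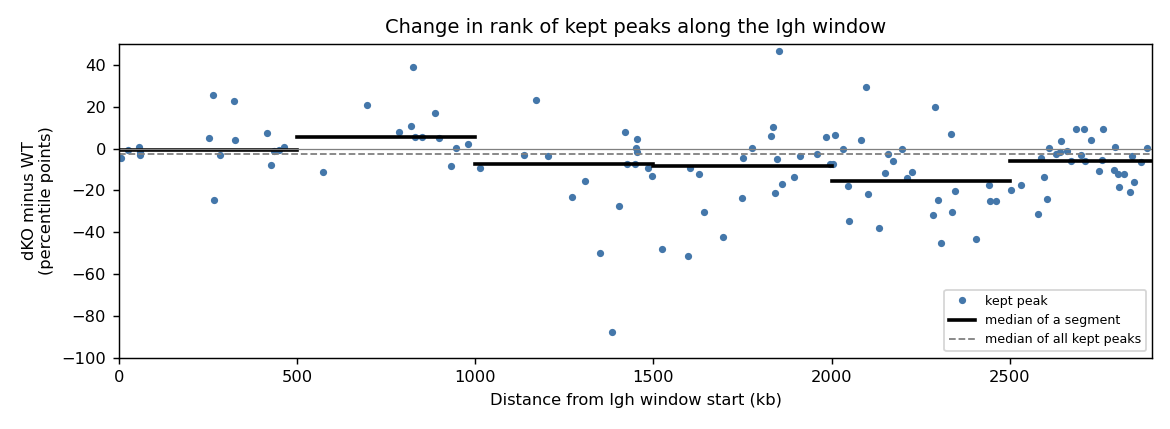
Difference in score percentile (dKO minus WT) of each kept Igh peak by distance from the window start (kb); black bars are medians of 500 kb segments, and the last segment is 400 kb. The second segment lies above 0, the fifth lowest at -15.7, and 1 peak stands apart at -87.8 points.

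Apart from the run, the strongest lost Igh peaks lay at higher coordinates, and the segments they belong to were not settled here. The peak at chr12:115617099-115617249 (percentile 80.1) and the strongest gained peak, chr12:115617289-115617439 (percentile 84.3), were 190 bp apart, so the region was called in both genotypes at different places. The lost peak at chr12:115800766-115800916 stood at 67.6 and had a dKO peak 1932 bp away. The remaining 62 lost peaks stood at 0.793 to 65.4, with a median of 25.8.

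The gained Igh peaks had a median percentile of 18.9, against 30.5 for all gained peaks, and 9 of 20 had a WT peak centre within 500 bp, against 31.2% of all gained peaks. Besides the one named, they were led by chr12:116219828-116219978 at 54.2, chr12:115888756-115888906 at 46.8 and chr12:116642354-116642504 at 30.5, each with a WT peak within 251 bp. The next, chr12:117032441-117032591 at 28.5, was 3688 bp from a WT peak. The other 15 stood at 1.69 to 27.4. The gained Igh peaks with percentiles above 50 numbered 2, and both had a lost WT peak beside them. The window held 62 dKO peaks above percentile 50, where the 10% bands of the whole list had 6.24 to 21.5% gained.

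Igk was the most sparsely accessible window, and its 5 strongest kept regions lay at the constant end. It held 24 dKO and 30 WT peaks over 3250 kb, or 0.738 dKO and 0.923 WT peaks per 100 kb, with 20 kept, 4 gained and 10 lost. The gained share was 16.7% (4.74 to 37.4%) and the lost share 33.3% (17.3 to 52.8%), intervals that contained the whole-list values. In the RefSeq order, 162 variable segments lie at the low-coordinate end, then 5 joining segments and the constant region, so the order is opposite to that of Igh. The last 250 kb (70500001 to 70750000) held 8 of the 24 dKO and 9 of the 30 WT peaks. No peak of either list was found over 645 kb from 68914229 to 69559617 (between centres).

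The 5 strongest kept Igk peaks all lay in these last 250 kb. Their ranks differed by 5.63 points or less between genotypes, which is again partly built in by the way they were picked. The strongest, chr6:70742203-70742353, stood at 98.4 in dKO and 98.5 in WT. Next were chr6:70664418-70664568 (84.7 in dKO, 90.3 in WT) and chr6:70659413-70659563 (84.3 in dKO, 86.9 in WT). The peaks at chr6:70747970-70748120 (81.3 in dKO, 78.7 in WT) and chr6:70718870-70719020 (74.1 in dKO, 70.3 in WT) followed. Rpia, which encodes an enzyme of the pentose phosphate pathway, is the next protein-coding gene beyond the constant region, and which of these peaks belong to Igk was not settled here.

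Between the pair at chr6:70659413-70659563 and chr6:70664418-70664568 lay the strongest lost Igk peak, chr6:70663226-70663376. It stood at percentile 68.7 of the WT list, and its nearest dKO peak was 1086 bp away. The other lost peaks were weaker: chr6:70680954-70681104 at 40.4, chr6:68630795-68630945 at 36.8, chr6:68255426-68255576 and chr6:70068952-70069102 at 16.1 each, and 5 peaks at 1.77 to 13.2. The 4 gained peaks stood at 49.1 (chr6:67515863-67516013, 498 bp from a kept WT peak), 14.7 (chr6:70712732-70712882) and 0.296 (chr6:68914155-68914305), with chr6:67581734-67581884 between these last values. No gained Igk peak thus stood above percentile 50, where the window held 9 dKO peaks. Over the whole list, 6.24 to 21.5% of dKO peaks in the 10% bands above percentile 50 were gained.

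At single Igk sites, ranks moved in both directions. The site at chr6:70053365-70053515 stood at 77.9 in dKO and 32.9 in WT, 45.0 points higher, which 1.26% of all kept peaks matched or passed. Near the constant end chr6:70723960-70724110 stood at 50.9 in dKO and 35.8 in WT. In the other direction chr6:70264735-70264885 stood at 16.1 in dKO and 60.5 in WT, and chr6:67649071-67649221 at 26.3 in dKO and 57.5 in WT. In the first 500 kb of the window (67500001 to 68000000) all 7 WT peaks were kept. The interval of this lost share (0 to 41.0%) contained the 39.1% of all WT peaks and the 40.7% at the same strength. Of these 7 peaks 6 ranked lower in dKO, where 33617 of all 52206 kept peaks were lower. Their median difference was -10.6 points, or -1.99 when ranked among kept peaks alone. With 7 peaks, these counts do not set the stretch apart.

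**Figure D5:**
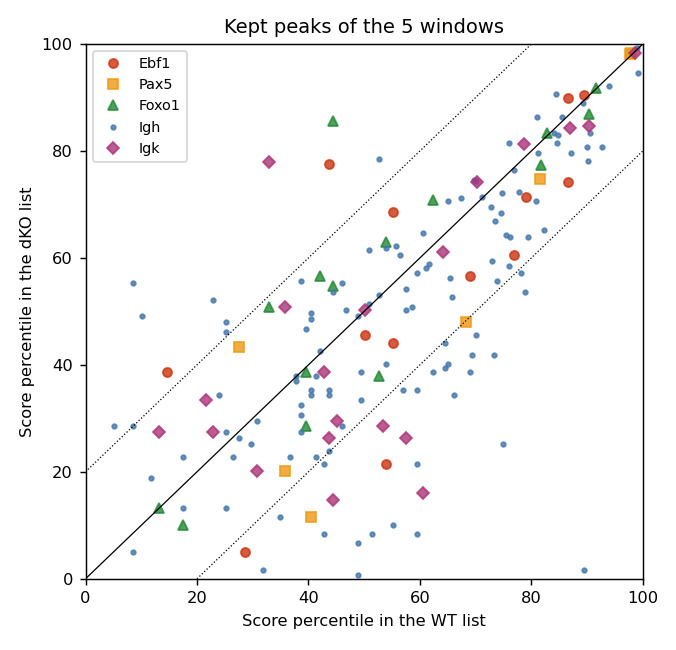
Score percentile in the dKO list (vertical) against that in the WT list (horizontal) for the 176 kept peaks, by window. The solid line marks equal rank and the dotted lines 20 points of difference; 12 peaks lie at or above the upper and 33 at or below the lower dotted line, and the Igh peak at 1.69 in dKO and 89.5 in WT stands alone at the lower right.

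Across the 5 windows, kept peaks at least 20 points higher in dKO were 12 of 176 (6.82%, against 7.4% of all kept peaks), and those at least 20 points lower 33 (18.8%, against 17.8%). The loci as a group thus had rank changes at rates near those of the whole lists. The 3 regulator windows together had a gained share of 28.6% (16.6 to 43.3%) and a lost share of 45.3% (32.8 to 58.3%). Peaks of the same strength had 25.6% and 44.4%. The immunoglobulin windows together had a gained share of 14.5% (9.55 to 20.9%) and a lost share of 35.3% (29.0 to 42.1%). Peaks of the same strength had 27.2% and 42.0%, and the whole lists 25.3% and 39.1%. Only the interval of the immunoglobulin gained share left out its same-strength and whole-list values. The intervals of the 2 kinds of locus overlap, and the difference between them was not tested.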

How the data were processed

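The data are 1 ATAC-seq peak list per library, with the groups taken from the genotype labels. The submitters' processing notes name bcl2fastq 1.8.4, Bowtie, HOMER and mm9, but give no settings. The sources used here do not give the transposase shift, the calling threshold or the treatment of duplicates and of reads with several matches, and each could change a list. The authors' deposited score has no header or stated unit and was used only to rank peaks within its list. All peaks but 1 per list are 151 bp wide, so 1 broad region can be marked at different places.

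Coordinates are mm9, 1-based. Percentiles are average ranks. Peaks were classed by 1 bp overlap. Expected shares at equal strength average the whole-list rate of each 10% score band. The overlap step was run on simulated lists whose planted kept peaks were shifted too little to stop overlapping. Displaced peaks were not simulated, so this run does not check how they are classed. Per window, the 5 strongest kept, lost and gained peaks and the 2 largest rank differences each way are named. Kept peaks were ordered by the mean of their 2 percentiles, which favours peaks that rank high in both lists. Members and lists were chosen with earlier results of these data known. The window segments, the Igh run and its alternatives were chosen after seeing the data. Python 3.11.15, NumPy 2.4.6, SciPy 1.17.1, pandas 2.3.3 and matplotlib 3.10.9 were used.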

Additional observations from a re-analysis of the deposited data

How the results depend on the processing

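No paired analysis was possible because each genotype had a single library, so leaving out a replicate was not possible either. Over the 9 alternatives, 159 of 186 values stayed within their interval, or within 1.5 times for counts. Intervals of windows with few peaks are wide, so staying within them says little there. The lost Ebf1 share, 51.9% as planned (31.9 to 71.3%), was 36.8% at equal list lengths and still counted as within. When peaks up to 500 bp apart were counted as kept, the gained share was 7.80% in Igh and 11.2% over the 5 windows, against 16.4% of all dKO peaks, and the Igh run had 7 peaks, as it did with centres within 200 bp. With both lists limited to their upper 50%, the counts of dKO and WT peaks were by construction smaller: 9 and 13 in Ebf1, 3 and 4 in Pax5, 10 and 8 in Foxo1, 62 and 80 in Igh, 9 and 10 in Igk, 93 and 115 in all. The gained Pax5 share was then 0%, of 3 peaks, and the longest Igh run had 7 peaks at another place (116626762 to 116843457). At equal list lengths the lost share was 28.5% in Igh, 13.6% in Igk and 27.4% over the windows, against 31.4% of all WT peaks, while the gained Igh share of 19.9% stayed below the 31.4% of all dKO peaks. Median rank differences of kept peaks depended on the scale: at equal list lengths they were 12.9 points in Foxo1, 2.08 in Igh, 5.05 in Igk and 2.04 over the windows (0.77 over all kept peaks), and among kept peaks alone 0.59 in Igh, 2.36 in Igk and 0.86 over the windows (0.55 over all). The sign thus changed with the scale in Igh, Igk, the windows together and all kept peaks, and is no result there. As planned, at equal lengths and among kept peaks alone, the medians were -7.64, -1.88 and -3.29 in Ebf1. They were -6.78, -1.06 and -2.89 in Pax5 and 0.10, 12.9 and 5.23 in Foxo1. The planned intervals of these windows (-16.2 to 13.5, -28.8 to 15.9 and -4.28 to 10.3) include both signs, so their sign is no result either. Read depth is unknown, and weak peaks near the calling limit can be missed in 1 list.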
